A study of Homo sapiens with 2 samples.

Results

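The genes described here are those of the apoptosis pathway whose transcripts were listed after an immunoprecipitation of ALKBH5 from HL-60 cells, 36 genes of the 5237 gene identifiers that the study's GO and KEGG tables name. They were chosen by a readout: each is an entry of the KEGG pathway Apoptosis in the authors' deposited table, so the listing itself chose the members and is given as a description, with no test. Entries that also stand in the KEGG pathways Autophagy - animal, Phagosome or Phosphatidylinositol signaling system were left out, as were CSF2RB, IKBKB and IKBKG, and each identifier was counted once. HL-60 is an established human promyelocytic leukaemia line, and ALKBH5 is a demethylase that erases N6-methyladenosine from RNA. RNA pulled down with an antibody to ALKBH5 (IP) and RNA of the whole lysate (input) were sequenced, with 1 library of each, and a rabbit IgG control is described in the design but was not analysed here. The labels give both libraries the same cell line and the same entry, ALKBH5, for genotype, with no treatment, time or clone. The labels contradict each other on which library is the IP, since title and library name disagree in both samples. No value below belongs to a single library.

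Apoptosis is a form of cell death that a cell carries out on itself with caspases, proteases that cut after aspartate. In the extrinsic route, ligands such as TNFSF10 bind death receptors, and adaptors gather initiator caspases there. In the intrinsic route, members of the BCL2 family decide whether the outer mitochondrial membrane opens, and APAF1 then gathers caspase 9 around released cytochrome c. Both routes end in executioner caspases, which cut substrates such as lamins, spectrin and poly(ADP-ribose) polymerases, while NF-kappaB and growth factor receptors hold the pathway back. Neutrophils and their precursors are short-lived cells in which MCL1 is known as a main survival factor.

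The deposited tables carry no level for a gene, so a gene is described as named or not named, and by which terms. The depth behind a named gene is unknown, and with a single library of each kind there were no replicates and no test between IP and input. A gene becomes visible in the GO and KEGG tables only through a term that reached the authors' limit for listing. As a check of the cell type, 6 of 12 markers of promyelocytic cells were named in the tables (MPO, PRTN3, CD33, CEBPA, LYZ and MYC), while ELANE, AZU1, CTSG, CEBPE, SPI1 and MYB were not. Of 13 markers of other cell types 6 were named as well (CD4, EPCAM, KRT8, KRT18, KRT19 and PECAM1), so naming does not separate HL-60 markers from the others.

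The Apoptosis pathway had 73 entries on 136 background genes in the authors' deposited table, with a rich factor of 1.61, a p-value of 0.0109 and a corrected p-value of 0.236. It stood at place 15 of the 38 listed KEGG pathways by the p-value of the authors' deposited table, and its corrected p missed 0.05. The rich factor follows entries, some of which share an identifier. Neither the rich factor nor the p-value was recomputed by identifier. The 73 entries stood on 64 identifiers, 47.1% of the pathway's background genes, against 53.7% by entry. By identifier the pathway held place 33 of 38 in listed share, and by entry place 29. Its 1.14 entries per identifier were the fifth highest of the 38 pathways, because 9 entries carried the symbol of another transcript. The rule left out 28 of the 64 identifiers: 16 were entries of Autophagy - animal, 8 of Phagosome, 6 of Phosphatidylinositol signaling system and 3 were the named signalling genes, with some counted under more than 1 heading. The remaining 36 identifiers carried 37 symbols. Since the rule removed entries of 3 other KEGG pathways, how many further KEGG pathways hold a member is in part fixed by the rule, and such counts are given as description.

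**Figure D1:**
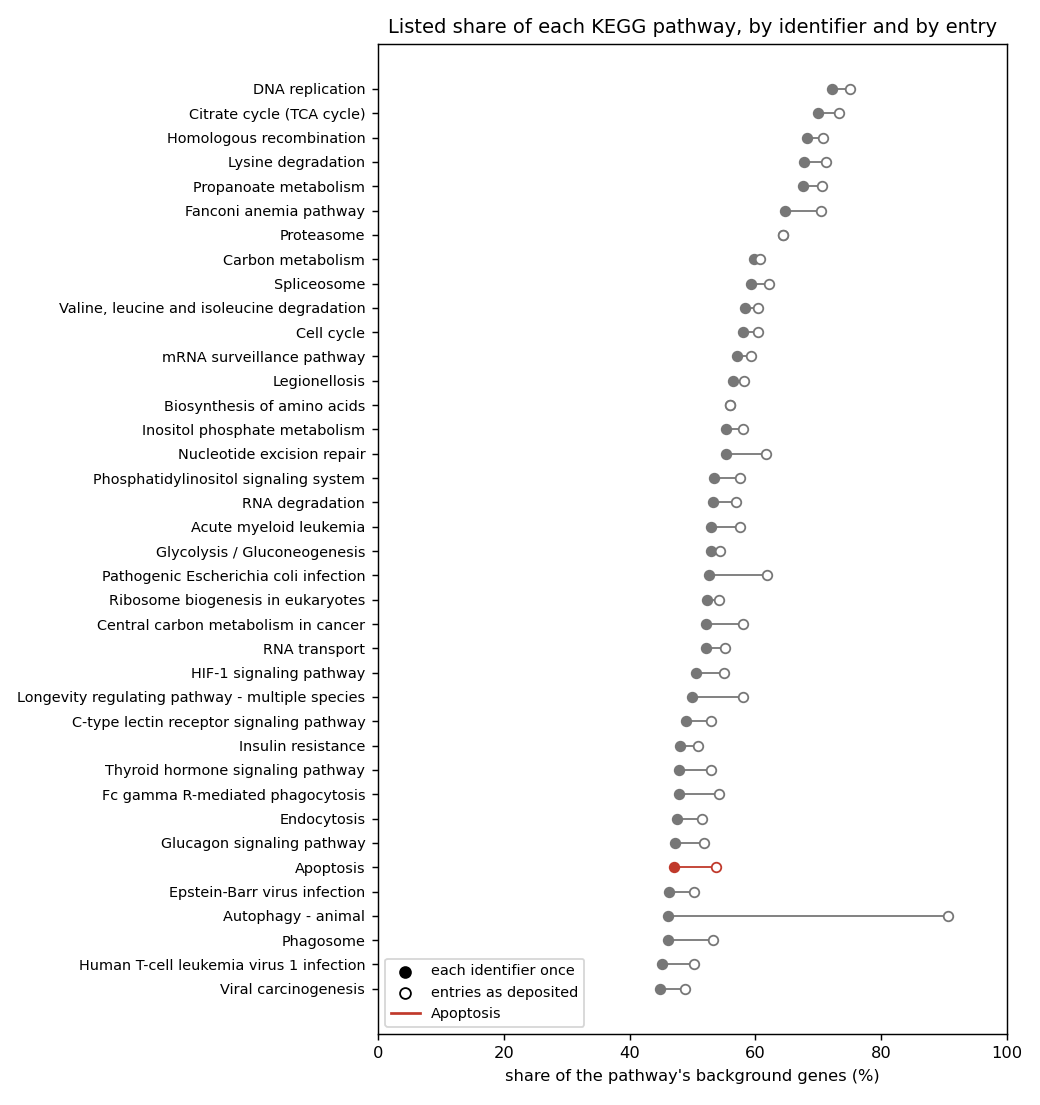
Listed share of the background genes (%) for each of the 38 KEGG pathways, with filled points for identifiers counted once and open points for entries as deposited; Apoptosis is in red. Apoptosis lies at 47.1% by identifier and 53.7% by entry, and the wide gap of Autophagy - animal (46.1% and 90.6%) is the largest.

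MAP3K14 was the 1 member of 36 whose identifier carried a second symbol, a share of 2.78% against 5.56% of the 5237 identifiers and 6.22% of the 1142 identifiers of the KEGG table. The second symbol was MAP3K14-AS1, a long noncoding RNA read from the other strand. MAP3K14 encodes the kinase NIK, which starts noncanonical NF-kappaB signalling, and lies on the minus strand at chr17:45263119-45317020. All positions are those of RefSeq on GRCh38.p14, a release of the hg38 build that the submitters' processing notes name. MAP3K14-AS1 lies on the plus strand at chr17:45247925-45268630. The annotated genes share 5512 bases (chr17:45263119-45268630), at the 3′ ends of both. The kit was stranded per the labels' protocols, but whether peaks were assigned by strand is not given in the sources used here, so signal in the shared stretch cannot be assigned to either gene from these tables. The start windows of both genes are shown because they are separate although the table counts both under 1 gene. Each is printed 5′ to 3′ on the gene's own strand, from RefSeq (GRCh38.p14), with 250 bases before the start in lower case and the first 50 transcribed bases in capitals; for MAP3K14-AS1 the first of 2 annotated windows is given, chr17:45247675-45247974, and for MAP3K14 chr17:45316971-45317270.
MAP3K14: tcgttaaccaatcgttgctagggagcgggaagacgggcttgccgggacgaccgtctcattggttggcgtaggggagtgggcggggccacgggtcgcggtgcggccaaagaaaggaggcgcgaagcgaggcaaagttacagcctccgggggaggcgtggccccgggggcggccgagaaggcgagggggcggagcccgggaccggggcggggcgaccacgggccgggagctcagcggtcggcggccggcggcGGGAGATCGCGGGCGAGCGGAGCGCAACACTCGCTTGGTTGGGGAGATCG
MAP3K14-AS1: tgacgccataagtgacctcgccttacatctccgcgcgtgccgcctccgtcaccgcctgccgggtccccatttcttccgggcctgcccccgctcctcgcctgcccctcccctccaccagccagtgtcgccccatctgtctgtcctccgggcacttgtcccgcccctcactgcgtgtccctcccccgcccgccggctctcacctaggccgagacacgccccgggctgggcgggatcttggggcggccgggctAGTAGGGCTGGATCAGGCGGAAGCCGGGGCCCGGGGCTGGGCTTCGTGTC
The printed start sites lie 69.1 kb apart. The MAP3K14 window holds 42 CG dinucleotides and 72.7% G and C, and the MAP3K14-AS1 window holds 29 and 72.3%.

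Death receptor genes and their adaptors made up 6 of the 36 members. They were the ligand TNFSF10 (TRAIL, chr3:172505508-172523430), its receptor TNFRSF10A on chromosome 8, the TNF receptor TNFRSF1A (chr12:6328771-6342076), the kinase RIPK1 that docks on these receptors (chr6:3063967-3115187), and the adaptors TRAF1 (chr9:120902393-120929171) and TRAF2 (chr9:136881958-136926607). A ligand, receptors and adaptors were thus each named, but in part. They do not make up a complete route, since TNF, FADD and TRADD were not named. Of 18 genes of a list of death receptors and adaptors, 7 were named (38.9%), the 6 members and CFLAR, the caspase 8 inhibitor that the rule left out as an autophagy entry. Across all protein-coding genes of RefSeq, 26.9% were named in any of the tables. A listed Apoptosis pathway favours naming of its own genes, so shares above that background are no result about them. FAS and FASLG, FADD and TRADD, the adaptors of FAS and of TNFRSF1A, and TNFRSF10B, the second TRAIL receptor that signals death, were not named in any table.

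RIPK1 was named by 11 GO terms and TRAF2 by 10, whereas TNFRSF1A had 3, TNFRSF10A 1 (cytosol) and TNFSF10 0. TNFSF10 stood in no other KEGG pathway either, so it would not be visible without the Apoptosis pathway. IL3RA, the alpha chain of the interleukin 3 receptor, was the other member named through this pathway alone. Members with no GO term made up 5.56% of the set (2 of 36), against 4.03% of the KEGG identifiers. Over all 5237 identifiers the share was 0.878%, which is no like comparison. An identifier outside the listed KEGG pathways is visible only through a GO term. RIPK1, TRAF1 and TRAF2 were all entries of ubiquitin protein ligase binding, and TRAF1 and TRAF2 of regulation of I-kappaB kinase/NF-kappaB signaling. With PIDD1, 3 members stood in that second term (8.33%, against 0.701% of KEGG identifiers and 0.363% of all). The term named just 8 KEGG identifiers and 19 of all, and the 3 members are among both. These shares thus rest on few genes, and their difference was not tested. The members were chosen as entries of a pathway, and genes of 1 pathway share their annotation.

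The BCL2 family was represented by MCL1, which holds BAX and BAK1 in check on mitochondria and lies at chr1:150574558-150579610. It was named by 8 GO terms, among them mitochondrial outer membrane, mitochondrion and negative regulation of autophagy, and by no other KEGG pathway. Of 17 family genes, 4 were named in any table (23.5%, against 26.9% of protein-coding genes) and 2 of them in the Apoptosis pathway. The other in the pathway was BCL2L1, which encodes the survival protein BCL-XL and was left out as an autophagy entry. Its identifier also carried ABALON, a second symbol. BCL2L2, another survival member, and BMF, of the BH3-only group that sets off apoptosis, were named by GO terms alone. BCL2 and BCL2A1 on the survival side, the pore formers BAX, BAK1 and BOK, and the BH3-only genes BID, BAD, BCL2L11, BBC3, PMAIP1, HRK and BIK were not named.

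Caspases among the members were CASP2, CASP8 and CASP10. CASP8 and CASP10 are the initiators of the death receptor route, and CASP2 is the initiator that answers to PIDD1. Of 12 caspase genes 4 were named in any table (33.3%, against 26.9% of protein-coding genes), the fourth being CASP1, the inflammasome protease, through 2 other KEGG pathways and GO terms. CASP6 and the initiator CASP9 of the mitochondrial route were not named. CASP8 was named by 8 GO terms and by 4 KEGG pathways beside Apoptosis, CASP2 by 7 GO terms and CASP10 by 3, both with no other KEGG pathway. CASP10 (chr2:201183141-201229406) and CASP8 (chr2:201233463-201287711) are neighbours with 4.06 kb between them. CASP2 lies at chr7:143288351-143307696.

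Platforms and mitochondrial factors gave 5 members. APAF1 (chr12:98645290-98735433), the scaffold of the apoptosome, was named by 9 GO terms, one of them neutrophil degranulation. PIDD1 (chr11:799184-809501), which gathers CASP2 after DNA damage, was named by 6. HTRA2 (chr2:74529405-74533556), a mitochondrial protease that blocks caspase inhibitors once released, had 5 GO terms, AIFM1 (chrX:130129362-130165841), a flavoprotein that moves to the nucleus, 5, and ENDOG (chr9:128818500-128822676), a mitochondrial nuclease, 6. HTRA2, AIFM1 and ENDOG were all entries of the terms mitochondrion, nucleus and cytosol. The group thus covers the assembly platforms and proteins that leave mitochondria, while CYCS (cytochrome c) and DIABLO were not named. Of a list of 14 mitochondrial factors and caspase inhibitors 6 were named (42.9%, against 26.9% of protein-coding genes). The list holds 4 of the members, since PIDD1 is counted on the stress list. The caspase inhibitors XIAP, BIRC2, BIRC3 and BIRC5 were not named, whereas BIRC6 and NAIP were named outside the Apoptosis pathway.

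**Figure D2:**
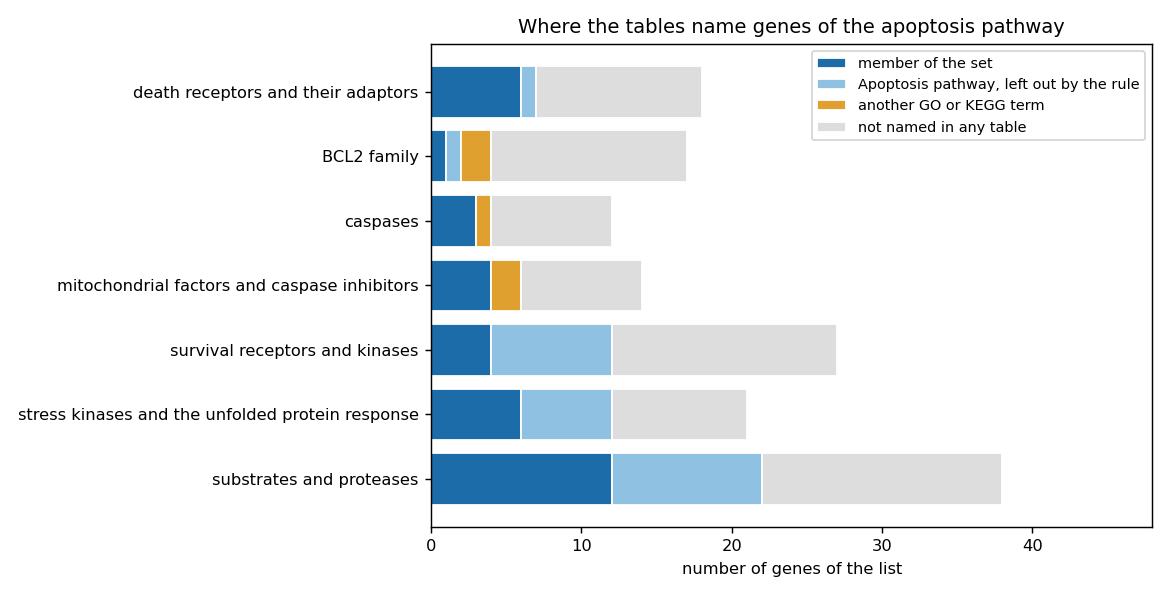
Number of genes of 7 role lists that are members (dark blue), in the Apoptosis pathway but left out by the rule (light blue), named by another GO or KEGG term (orange) or not named in any table (grey). Substrates and proteases have 22 of 38 genes in the pathway, and the BCL2 family 2 of 17. The lists also hold genes that were named but are no entries of the pathway, such as BCL2L2 and BMF. These counts therefore do not compare the roles.

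Survival and stress signalling gave 9 members. NFKB1 (chr4:102501359-102617302) and RELA (chr11:65653601-65663857), which together form the classical NF-kappaB dimer, were each named by 8 other KEGG pathways, more than any other member. RELA had 19 GO terms and NFKB1 11. IL3RA (chrX:1336785-1382689) and MAP3K14, described above, complete the survival side, MAP3K14 with 8 GO terms and 3 other KEGG pathways. Genes of the PI3K and RAS routes (among them AKT1, AKT2, PDPK1, PIK3CD, PIK3R2, PIK3R3 and HRAS) were named but left out as autophagy entries. Of 27 genes on the survival list 12 were thus named (44.4%, against 26.9% of protein-coding genes) and 4 were members. PIK3CA, PIK3CB, NRAS, MAPK3 and NFKBIA were not named.

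On the stress side, MAP3K5 (ASK1, chr6:136557046-136793091), the kinase that passes oxidative stress to JNK, had 10 GO terms. JUN (chr1:58780791-58784047) had 15 and FOS (chr14:75278828-75282230) 7; their proteins form the transcription factor AP-1. ATM (chr11:108223067-108369102), the kinase that answers to double-strand breaks, had 24 GO terms and 3 other KEGG pathways. GADD45B (chr19:2476127-2478257), a stress-induced regulator of p38 and JNK kinases, had 3 GO terms and 2 other KEGG pathways. Of 21 genes on the list of stress kinases and the unfolded protein response 12 were named (57.1%, against 26.9% of protein-coding genes). This list also holds PIDD1, described above with the platforms. The JNK kinases MAPK8, MAPK9 and MAPK10 were not named.

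Substrates and the proteases that cut beside caspases were the largest group, with 12 members. All 4 genes of the PARP family on the list were members: PARP1 (chr1:226360691-226408093), the classical caspase substrate, PARP2 (chr14:20343635-20357904), PARP3 (chr3:51942363-51948867) and PARP4 (chr13:24420931-24512778). They were the 4 members among the entries of DNA repair. All 3 lamin genes were members too: LMNA (chr1:156082573-156140081), LMNB1 (chr5:126776623-126837020) and LMNB2 (chr19:2428166-2456959), which build the nuclear lamina that caspases take apart. The spectrin SPTAN1 (chr9:128552587-128633662), the nuclease DFFB (chr1:3857476-3885429) that cuts DNA between nucleosomes, the calcium protease CAPN1 (chr11:65181373-65212006) and the cathepsin CTSK (chr1:150796208-150808260) were further members of the group. DFFA, the inhibitor and chaperone of DFFB, was not named.

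Of 38 substrates and proteases 22 symbols were named (57.9%, against 26.9% of protein-coding genes); ACTB and ACTG1 count as 2 of them although the table puts both under 1 identifier. The 10 that were not members are the actins, the tubulins and the cathepsins CTSD, CTSL and CTSS. None of the 12 members stood in another listed KEGG pathway, against 23 of all 36 members. The rule fixed this in part, since it removed these 10 as entries of Autophagy - animal or Phagosome. PARP1 had 26 GO terms, the most of any member, while LMNB2 had 1 (nuclear membrane) and CTSK had 2.

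**Figure D3:**
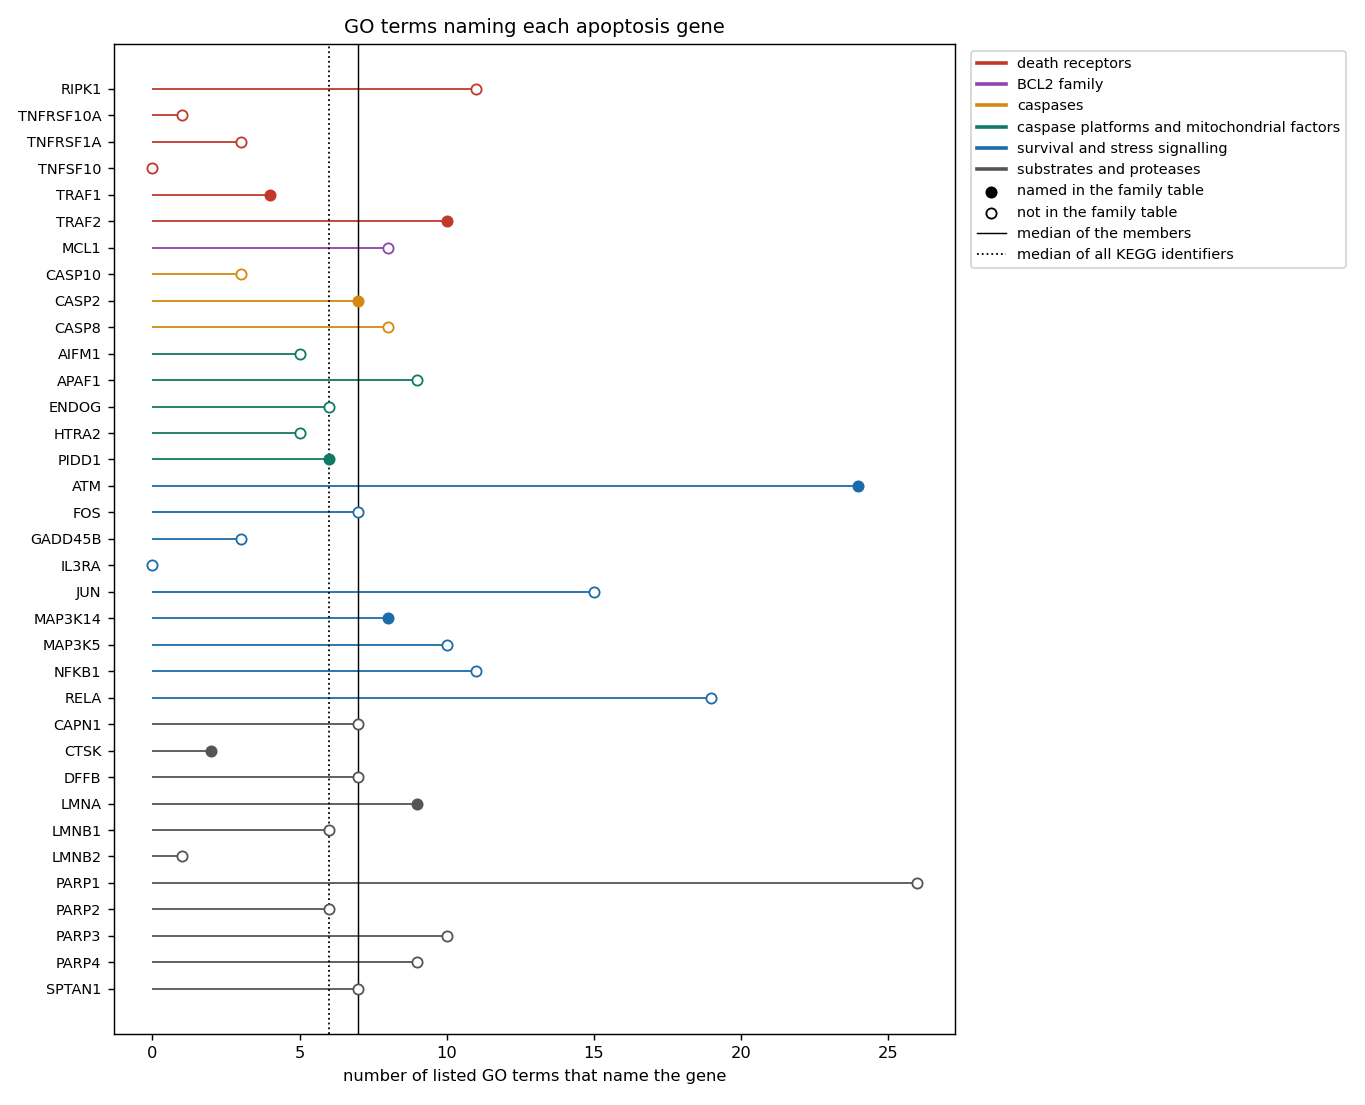
Number of listed GO terms that name each gene described by name, ordered by role (colours); filled points are genes in the family table of RNA-binding proteins. The values run from 0 (TNFSF10, IL3RA) to 26 (PARP1), with a median of 7 over the 36 members against 6 for all KEGG identifiers.

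The GO terms set the members beside other named genes, over a measure that the rule did not use, although GO and KEGG annotate the same biology. A member was named by a median of 7 GO terms (range 0 to 26), against 6 for the 1142 KEGG identifiers (0 to 34) and 4 for all 5237. The term mitochondrion named 11 of 36 members (30.6%), against 12.3% of KEGG identifiers and 9.43% of all. These 11 were AIFM1, CAPN1, CASP2, CASP8, ENDOG, HTRA2, MCL1, NFKB1, PARP1, RIPK1 and TNFRSF1A. The term ubiquitin protein ligase binding named 7 members (19.4%), against 4.99% of KEGG identifiers and 2.71% of all: CASP8, CASP10, JUN, RELA, RIPK1, TRAF1 and TRAF2. DNA binding also named 7 (19.4%), against 7.97% and 10.2%. No test was made of these differences, and 36 genes of 1 pathway share their annotation.

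Cytosol named 25 members (69.4%), against 57.0% of KEGG identifiers and 43.1% of all. Nucleus named 20 (55.6%, against 48.1% and 41.8%) and nucleoplasm 17 (47.2%, against 48.2% and 35.0%), and 24 members had one or both. Cytoplasm named 12 (33.3%, against 38.9% and 34.8%) and membrane 10 (27.8%, against 25.5% and 19.2%). These compartments lay nearer to the KEGG identifiers than mitochondrion did. RNA binding, the leading molecular function of the GO table, named 2 members, JUN and PARP1 (5.56%), against 20.3% of KEGG identifiers and 14.9% of all. The KEGG identifiers include those of listed RNA pathways, such as Spliceosome (80) and RNA transport (86). Their part in that share was not tested. ATP binding named 5 (13.9%, against 21.8% and 14.9%). DNA repair named 4 (11.1%, against 5.08% and 2.75%).

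Neutrophil degranulation named 4 members (11.1%, against 6.92% of KEGG identifiers and 4.24% of all): APAF1, CAPN1, NFKB1 and SPTAN1. The term's corrected p-value in the authors' deposited table was 0.412. Just 1 of the 311 listed GO terms had apoptosis, death or caspase in its name, negative regulation of neuron apoptotic process. It named JUN alone of the 36 members (2.78%, against 1.4% of KEGG identifiers and 0.821% of all). The term also named BCL2L1, HRAS and PDPK1, entries of the Apoptosis pathway that the rule left out as autophagy entries.

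**Figure D4:**
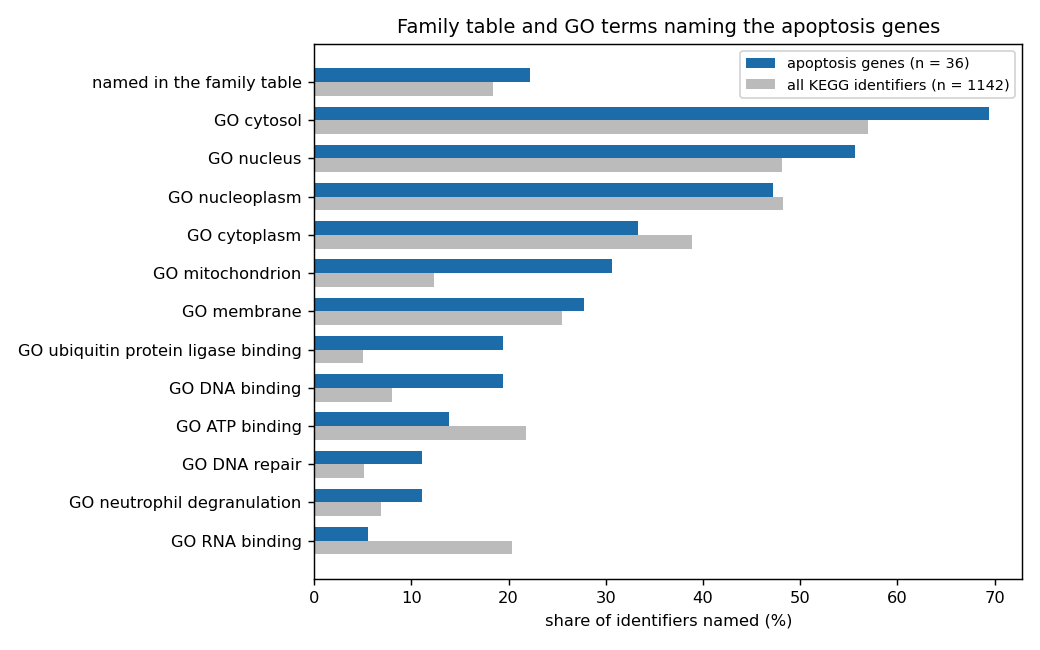
Share (%) of the 36 apoptosis genes (blue) and of all 1142 KEGG identifiers (grey) named in the family table and in 12 GO terms. The bars differ widely for mitochondrion (30.6% and 12.3%) and RNA binding (5.56% and 20.3%), and lie close for the family table (22.2% and 18.4%).

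Other KEGG pathways that share members were led by viral ones, among the pathways that the rule did not remove. Epstein-Barr virus infection held 9 members (25%, against 8.14% of KEGG identifiers), Human T-cell leukemia virus 1 infection 7 (19.4%, against 8.67%) and Viral carcinogenesis 6 (16.7%, against 7.88%). C-type lectin receptor signaling pathway held 5 (13.9%, against 4.47%) and Legionellosis 4 (11.1%, against 2.71%). NFKB1 and RELA were in all 5. Epstein-Barr virus infection also held APAF1, CASP8, GADD45B, JUN, MAP3K14, RIPK1 and TRAF2. Acute myeloid leukemia, the disease of the line's origin, held NFKB1 and RELA, 2 members (5.56%, against 3.06%). The corrected p-values of these 6 pathways ran between 0.231 and 0.334 in the authors' deposited table. HIF-1 signaling pathway held the same 2 members as Acute myeloid leukemia. Insulin resistance held 3 members, Cell cycle 2 and Homologous recombination 1.

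The family table sets families of RNA-binding proteins beside gene symbols and took no part in the choice of members. How it was made and what a pairing means are unknown here, so a pairing does not make a gene's product an RNA-binding protein. It named 8 of the 36 (22.2%), against 20.5% of the 5237 identifiers and 18.4% of KEGG identifiers, which is a share near the background. The 8 were TRAF1 and TRAF2, CASP2, PIDD1, ATM, MAP3K14, LMNA and CTSK. ATM, CTSK, LMNA, MAP3K14, PIDD1 and TRAF2 were paired with all 4 families of that table, TRAF1 with 3 and CASP2 with 2. Pairing with all 4 was thus found for 6 members (16.7%), against 13.2% of the 5237 identifiers and 11.8% of KEGG identifiers. CASP2 and its platform PIDD1 were both in the table, and so were both TRAF genes, whereas NFKB1, RELA, JUN, FOS, MCL1 and the 4 PARP genes were not. MAP3K14-AS1 was paired with 3 families.

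The members are spread over 16 chromosomes, with 7 on chromosome 1. Within 1 Mb of each other lay 5 pairs: CASP10 and CASP8 (4.06 kb), LMNB2 and GADD45B (19.2 kb), SPTAN1 and ENDOG (185 kb), MCL1 and CTSK (217 kb) and CAPN1 and RELA (442 kb). Peak positions were not analysed here, so signal that crosses from 1 neighbour to the next cannot be judged. Genomic length, introns included, had a median of 32.6 kb over the members (2.13 to 236 kb), against 36.0 kb for protein-coding KEGG identifiers and 35.0 kb for all named protein-coding genes. The members were thus of ordinary length among named genes. GADD45B was the shortest at 2.13 kb, with JUN (3.26 kb) and FOS (3.4 kb) next, and MAP3K5 the longest at 236 kb. The 8 members of the family table had a median of 35.7 kb, against 32.6 kb for the 28 others.

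**Figure D5:**
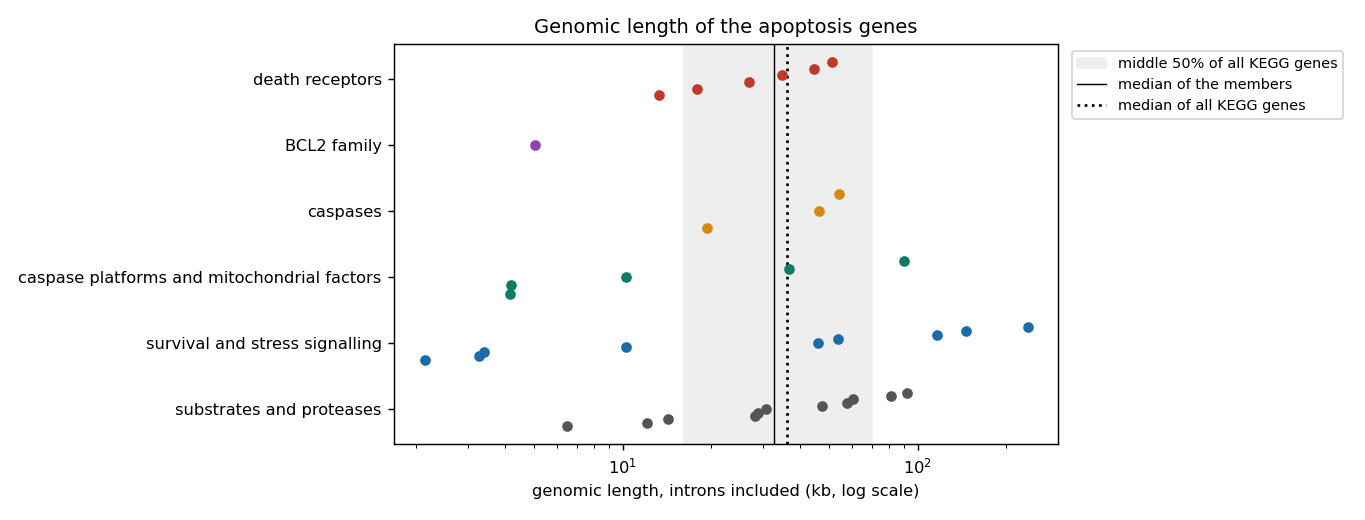
Genomic length (kb, log scale) of the genes described by name, by role, 1 point per gene; the grey band is the middle range (between the quartiles) of protein-coding KEGG identifiers (16.2 to 70.2 kb), and lines mark the medians of the members (32.6 kb, solid) and of KEGG identifiers (36.0 kb, dotted). Survival and stress genes span 2.13 to 236 kb, and all 3 caspases lie inside the band.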

How the data were processed

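RNA of an ALKBH5 immunoprecipitate and of input from HL-60 cells was sequenced, and 3 tables of the whole series were used, with no value per library; the depth is unknown. In the GO and KEGG tables the entry and background counts of each term, the rich factor (a ratio or fold) and the p-value with its corrected value are the authors' own, per the file headers. Per the submitters' processing notes, hg38 was the build. Which aligner and peak caller were used, and how the IgG sample entered, is not given in the sources used here. As deposited, the family table pairs symbols with family names (other, no number).

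Entries were split into identifier and symbol, and all 36 member identifiers were matched to RefSeq (GRCh38.p14), which gave positions and lengths; 29 had a start window there. Shares are set beside the same shares over all identifiers, with no test. Members, role groups and gene lists were chosen with earlier results of these data known. Every member is named except 1, which is not reported here; GO terms named are those with 10 or more members, or for a function of a member. The member rule was tested on simulated data. Python 3.11.15, pandas 2.3.3 and matplotlib 3.10.9 were used.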

Additional observations from a re-analysis of the deposited data

How the results depend on the processing

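No paired analysis was possible because no deposited table holds values per library. With no entry left out, the set had 64 identifiers in place of 36, and with each symbol counted once it had 37. The median number of GO terms was 3 for members and 2 for all identifiers when only terms with a corrected p under 0.05 in the authors' deposited table were counted, against 7 and 4 over all listed terms. With KEGG identifiers as background, the share in the family table was 18.4% in place of 20.5%. The other alternatives (every family required, older symbols, any of the tables, and the own symbol of each identifier) moved the values less than the limits used, which are 1.5-fold for counts and the exact 95% binomial interval for shares. That interval treats genes as independent and is wider for the 36 members than for all identifiers. It therefore does not compare how stable the shares are. The KEGG background for the number of GO terms was chosen after seeing the data. Naming depends on the terms the authors listed, and no depth or level is given, so weak and strong binding cannot be told apart.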

Other observations

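Among the 28 identifiers of the Apoptosis pathway that the rule left out, were genes of the cytoskeleton and the calcium channels of the endoplasmic reticulum. The tubulins TUBA1A, TUBA1B, TUBA1C, TUBA4A and TUBA8 were entries, while TUBA3C, TUBA3D, TUBA3E and TUBAL3 were not named in any table. The inositol trisphosphate receptors ITPR1, ITPR2 and ITPR3 were all entries, and the sensors of the unfolded protein response ERN1 and EIF2AK3 were, beside EIF2S1, which EIF2AK3 phosphorylates, whereas ATF4 and DDIT3 downstream of them were not named.

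Of the 73 entries of the pathway, 9 carried a symbol that is not that of their identifier's gene in RefSeq, and 1 of the 9, MAP3K14-AS1, was among the members. CFLAR-AS1 stood under the identifier of CFLAR and ABALON under that of BCL2L1, and clone names stood under those of TUBA1B, TUBA1C, TUBA8, CTSD and PIK3R2. ACTB stood under identifier 71, that of ACTG1, whereas RefSeq gives ACTB identifier 60, so these near-identical actin genes were counted as 1 gene. How the authors assigned these symbols is not given in the sources used here.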
